A study of Mus musculus with 3 samples.

Results

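Kinesins are motor proteins that walk along, or take apart, microtubules. The genes described here are the 44 protein-coding genes of the GENCODE M39 annotation named Kif or Kifc with a number, out of 21770 protein-coding genes, with the accessory genes Kifap3 and Kifbp left out. RNA contacts of Tra2β, a splicing regulator, had been mapped by iCLIP in testes of adult wild type mice, with 1 group of 3 biological replicates. The antibody was a polyclonal anti-Tra2b, the testes were minced and irradiated with ultraviolet light, and the cell type was given as mixed. In iCLIP the protein is fixed to the RNA it touches, and each cDNA ends next to the fixed nucleotide, so that 1 unique cDNA is counted here as 1 crosslink. No library of another genotype, antibody or input RNA was compared, so every comparison was made inside a library.

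A kinesin has a globular motor domain, with a P-loop that binds ATP and a switch II loop that senses it, joined through a neck to a coiled-coil stalk and a tail that holds cargo. In most families the motor is at the start of the protein, in kinesin-13 it lies inside, and in kinesin-14 it lies at the end. The testis uses kinesins in meiotic and mitotic spindles, in cytokinesis, in the manchette that shapes the sperm head and in building the flagellum. Tra2β is known for binding purine-rich RNA with GAA in it, including sites inside exons. Coiled coils are rich in glutamate and lysine, and GAA and AAG are codons of these amino acids.

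The sequences of 6 internal exons are shown because the results on single exons turn on them. Only Kif2c exon 7, Kif27 exon 13, Kif15 exon 31 and Kif21b exon 12 were called denser than the other coding bases of their transcript. This was a comparison per nt, by the test on single exons given below. Kif21b exon 12 rested on few crosslinks, as also given below. The last pair are shown for contrast. Kif27 exon 15 was rich in GAA without such a call, and Kif2a exon 3 was crosslinked with few GAA. Sequences are the sense strand of the canonical transcript, with each GAA in capitals, and positions are on GRCm39.
Kif2c exon 7 (chr4:117029482-117029582, minus strand): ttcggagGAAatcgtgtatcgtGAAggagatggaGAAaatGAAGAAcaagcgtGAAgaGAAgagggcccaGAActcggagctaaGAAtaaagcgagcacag
Kif27 exon 13 (chr13:58458896-58459072, minus strand): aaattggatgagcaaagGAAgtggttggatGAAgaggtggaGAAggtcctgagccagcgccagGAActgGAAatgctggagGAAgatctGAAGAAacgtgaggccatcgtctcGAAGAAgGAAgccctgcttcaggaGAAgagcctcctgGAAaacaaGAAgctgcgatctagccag
Kif15 exon 31 (chr9:122843005-122843077, plus strand): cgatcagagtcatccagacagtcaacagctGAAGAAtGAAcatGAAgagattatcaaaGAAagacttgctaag
Kif21b exon 12 (chr1:136080496-136080577, plus strand): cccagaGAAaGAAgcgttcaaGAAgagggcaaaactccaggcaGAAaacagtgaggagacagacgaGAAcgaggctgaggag
Kif27 exon 15 (chr13:58442698-58442904, minus strand): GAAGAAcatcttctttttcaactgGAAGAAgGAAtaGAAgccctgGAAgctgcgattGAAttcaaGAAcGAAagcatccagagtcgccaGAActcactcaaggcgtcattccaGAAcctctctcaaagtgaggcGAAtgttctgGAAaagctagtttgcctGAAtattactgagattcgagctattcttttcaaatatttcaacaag
Kif2a exon 3 (chr13:107129671-107129787, minus strand): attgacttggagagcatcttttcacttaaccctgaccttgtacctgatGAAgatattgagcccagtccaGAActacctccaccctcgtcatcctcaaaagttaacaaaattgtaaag

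The libraries held 348033, 619571 and 488719 crosslinks in replicates 1, 2 and 3, of which 224454, 306672 and 344580 lay in exons or introns of canonical transcripts of protein-coding genes. The exonic part of the latter differed between libraries and was 43.1%, 26.9% and 55.7% in the same order. Spermatocyte and spermatid markers were crosslinked in all 3 libraries, 9 of 9 genes. The liver and pancreas genes Alb and Ins2 were at 0, and the cardiac gene Myh6 had 2 crosslinks. Of the 3 Sertoli cell genes Amh was at 0, whereas Sox9 and Wt1 were crosslinked in all 3 libraries. The Sertoli list held 29, 60 and 37 crosslinks in replicates 1, 2 and 3. All 3 spermatogonial genes were crosslinked in every library, and so were 2 of the 3 Leydig cell genes. The summed level of the 5 spermatid markers was 1996, 522 and 2179 CPM (crosslinks of a gene scaled to those of its library in all protein-coding genes), so it was lowest in replicate 2, and that of the 4 spermatocyte markers was 1292, 1128 and 1907 CPM.

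Kinesin genes held 1071, 1416 and 1871 crosslinks in replicates 1, 2 and 3, a share of 0.494% ± 0.0432 (SD, n = 3) of the crosslinks in protein-coding genes. A crosslink was found in all 3 libraries in 37 of the 44 genes, 84.1%, against 50.6% of the other protein-coding genes. Most of the exonic signal came from few members, as the 10 genes with the most exonic crosslinks held 74.2% of the 2278 exonic crosslinks of kinesins. At the other end, 17 genes had under 10 exonic crosslinks in all. Of these, Kif12 had none and Kif28 had 6, all in introns. For a gene at 0, the limit of 3 crosslinks allows up to 13.4, 9.78 and 8.71 CPM in replicates 1, 2 and 3. A crosslink count rises with both RNA abundance and binding, RNA was not measured in these samples, and in a whole tissue fewer cells of a type cannot be told apart from less RNA per cell.

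**Figure D1:**
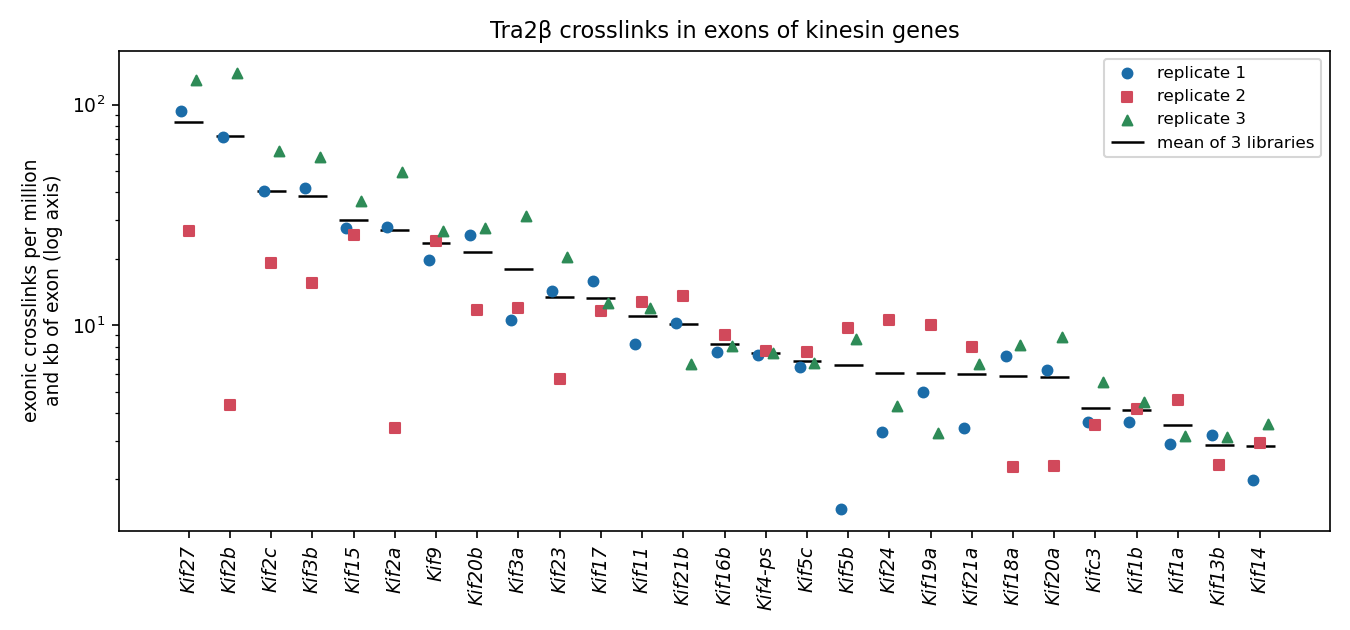
Exonic crosslinks as CPM per kb of exon (log axis) of the 27 kinesin genes with at least 10 exonic crosslinks, one point per library and a bar for the mean of 3 libraries. Kif27 and Kif2b have the highest means, and the libraries lie far apart for Kif2b and Kif2a, where replicate 2 is lowest.

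Kif27, a kinesin-4 known from motile cilia, was the most crosslinked kinesin. Its exons held 166, 65 and 352 crosslinks in replicates 1, 2 and 3, at 157, 61 and 326 different nucleotides, and its introns held 45, 63 and 64. With 855 CPM on average it ranked 80th of all protein-coding genes, and per kb of exon it ranked 184th with 83.3 ± 52.1 CPM per kb (SD, n = 3). Replicate 2 was low, with 26.9 CPM per kb against 93.7 and 129 in replicates 1 and 3. Kif27 alone made up 29.3%, 13.4% and 28.7% of the exonic crosslinks of kinesins.

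Kif2b and Kif2c, kinesin-13 genes for microtubule depolymerases, came next per kb of exon, and they and Kif2a differed much between libraries. Kif24, the other listed gene of this family, had 5, 22 and 10 exonic crosslinks in replicates 1, 2 and 3, the most in replicate 2. Kif2b is a single-exon gene, and it had 36, 3 and 108 crosslinks in replicates 1, 2 and 3, or 71.5, 4.36 and 139.7 CPM per kb. Kif2a had 42, 7 and 114 exonic and 36, 32 and 38 intronic crosslinks. Kif2c, which acts at centromeres, had 25, 16 and 58 exonic and 12, 20 and 17 intronic ones. In Kif2b, Kif2a and Kif2c replicate 2 had the fewest exonic crosslinks, and so it did for the spermatid markers Prm1, Prm2, Tnp1, Odf1 and Acrv1. Of the other testis markers with exonic crosslinks, Sycp1, Sycp2, Sycp3, Kit, Cyp17a1 and Insl3 were also lowest in replicate 2. Hormad1, Dmrt1, Zbtb16, Sox9, Wt1 and Star were not. Replicate 2 had the most crosslinks in all, but the fewest exonic ones over all protein-coding genes. Those were 96805, 82389 and 191799 in replicates 1, 2 and 3, and 566, 485 and 1227 over all kinesins. The part of cell composition in this was not tested.

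The heterotrimeric kinesin-2 motor that carries cargo along the axoneme is built from the products of Kif3a and Kif3b. Kif3b had 53, 27 and 113 exonic crosslinks in replicates 1, 2 and 3, and Kif3a had 13, 20 and 59. Kif3c, the other partner of Kif3a, had a single exonic crosslink, in replicate 2. The homodimeric kinesin-2 Kif17 had 13, 13 and 16, which differ little between the libraries.

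Among motors of the spindle and of cytokinesis, Kif15 differed little between libraries. This kinesin-12 gene had 30, 38 and 61 exonic and 29, 26 and 47 intronic crosslinks, with 29.8 ± 5.82 CPM per kb of exon (SD, n = 3). Kif20b, a kinesin-6 of late cytokinesis, had 32, 20 and 53 exonic and 6, 5 and 13 intronic crosslinks. Kif11, the kinesin-5 that pushes spindle poles apart, had 9, 19 and 20 in exons. Kif9, a kinesin-9 of the sperm flagellum, had 21, 35 and 44 in exons and many more in introns, 73, 120 and 96. Kif21b, a kinesin-4 that tunes microtubule growth, had 21, 38 and 21 in exons.

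Counts can be uncertain where members share much of their sequence, as Kifc1 and Kifc5b do. Of the 31-mers in the coding sequence of Kifc1, 65.7% are also in that of Kifc5b, and these kinesin-14 genes had 2 and 1 exonic crosslinks in all. The single-exon gene Kif4-ps shares only 0.935% of its coding 31-mers with Kif4. It had 7, 10 and 11 crosslinks, whereas Kif4 had 0, 0 and 4 in its exons.

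The next question was how far crosslinks in each kinesin lay in exons rather than introns. The ratio of exonic to intronic crosslinks of a gene was compared with that of all protein-coding genes together, library by library, and a gene was called when the adjusted p from edgeR's quasi-likelihood test over 9224 genes was under 0.05. Of all genes tested, 15.4% were called above and 20.6% below the pooled ratio. Of the 32 kinesins with enough crosslinks and an intron, 8 were called above and 6 below. Not tested were the single-exon genes Kif2b and Kif4-ps, and Kif1c, Kif3c, Kif7, Kif12, Kif19b, Kif26a, Kif28, Kifc1, Kifc2 and Kifc5b, which had under 10 crosslinks. The 18 tested genes that were not called, Kif1a, Kif1b, Kif2a, Kif4, Kif5a, Kif5b, Kif5c, Kif11, Kif13a, Kif14, Kif15, Kif17, Kif18a, Kif18b, Kif19a, Kif21a, Kif22 and Kifc3, had log2 differences from -1.28 in Kif18b to 1.83 in Kif22. The median log2 difference was 0.47 over the tested kinesins and -0.27 over the other genes tested, and the median total intron length was 51222.5 and 32289 nt. Over kinesins together, 52.8%, 34.3% and 65.6% of crosslinks were exonic in replicates 1, 2 and 3, against 43.1%, 26.8% and 55.6% in the other genes. Without Kif27 the kinesin values were 46.5%, 32.6% and 60.1%, still above the other genes in 3 of 3 libraries.

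The 8 kinesins above the pooled share included all 3 kinesin-6 genes, which encode motors of the central spindle. Kif20b was 81.5% ± 2.35 exonic (SD, n = 3), the smallest spread among the 8 genes (log2 difference 2.52, adjusted p = 3.99e-06 by edgeR). Its Clopper-Pearson 95% intervals in replicates 1, 2 and 3 were 68.7 to 94.0%, 59.3 to 93.2% and 68.7 to 89.1%. Kif23, whose product is part of centralspindlin, was 84.6%, 75.0% and 75.0% exonic (2.08, adjusted p = 0.00735). Kif20a rested on 22 exonic and 3 intronic crosslinks and was 75.0%, 75.0% and 100% exonic (3.01, adjusted p = 0.00747). All 3 genes were above the pooled share in every library.

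Kif27 was 78.7%, 50.8% and 84.6% exonic, with a log2 difference of 1.97 (adjusted p = 2.11e-07 by edgeR). Kif3b was 77.9%, 46.6% and 80.1% exonic and Kif3a 54.2%, 64.5% and 73.8%, with log2 differences of 1.70 (adjusted p = 0.000238) and 1.36 (adjusted p = 0.0142). Each of these shares was above that of all genes in its own library, and the low values of Kif27 and Kif3b in replicate 2 went with the low share of that library as a whole. Kif21b was 60.0%, 62.3% and 87.5% exonic (1.80, adjusted p = 0.00127). Kif2c was 67.6%, 44.4% and 77.3% exonic (1.34, adjusted p = 0.0127).

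The 6 kinesins below the pooled share were Kif26b, Kif6, Kif24, Kif13b, Kif16b and Kif9. Kif6, a kinesin-9 of motile cilia, had 1, 2 and 5 exonic crosslinks against 14, 59 and 22 intronic ones (log2 difference -2.92, adjusted p = 3.32e-05 by edgeR). Kif24, a kinesin-13 relative at the centriole, had 5, 22 and 10 against 52, 88 and 61 (-2.005, adjusted p = 7.68e-05). Kif9 was 22.3%, 22.6% and 31.4% exonic (-1.05, adjusted p = 0.0191). Each was below the share of all genes in all 3 libraries. Kif16b and Kif13b are 2 of the 6 tested genes of the kinesin-3 family of cargo motors. Kif16b had 8, 13 and 13 exonic and 39, 56 and 33 intronic crosslinks (-1.38, adjusted p = 0.0113), and Kif13b had 4, 4 and 6 against 15, 27 and 27 (-1.82, adjusted p = 0.00827). Kif1a of the same family had a log2 difference of 1.14, which did not pass (adjusted p = 0.153).

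Gene length moved with these calls. The introns of the 6 genes below the pooled share summed to between 45473 and 396327 nt, with a median of 171922, and those of the 8 genes above it to between 4869 and 66500 nt, with a median of 33890. When exonic and intronic crosslinks were compared per nt instead, none of the 6 stayed below: Kif6, Kif13b, Kif16b and Kif9 were then called denser in exons, with log2 ratios of 2.85, 2.40, 3.48 and 1.69. Kif24 and Kif26b were not called, with 0.74 and 0.095. The 8 genes called above stayed so. Calls also rested on the number of libraries, since without replicate 1 only 3 genes were called above and 2 below. Without replicate 3, 6 and 2 were called.

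**Figure D2:**
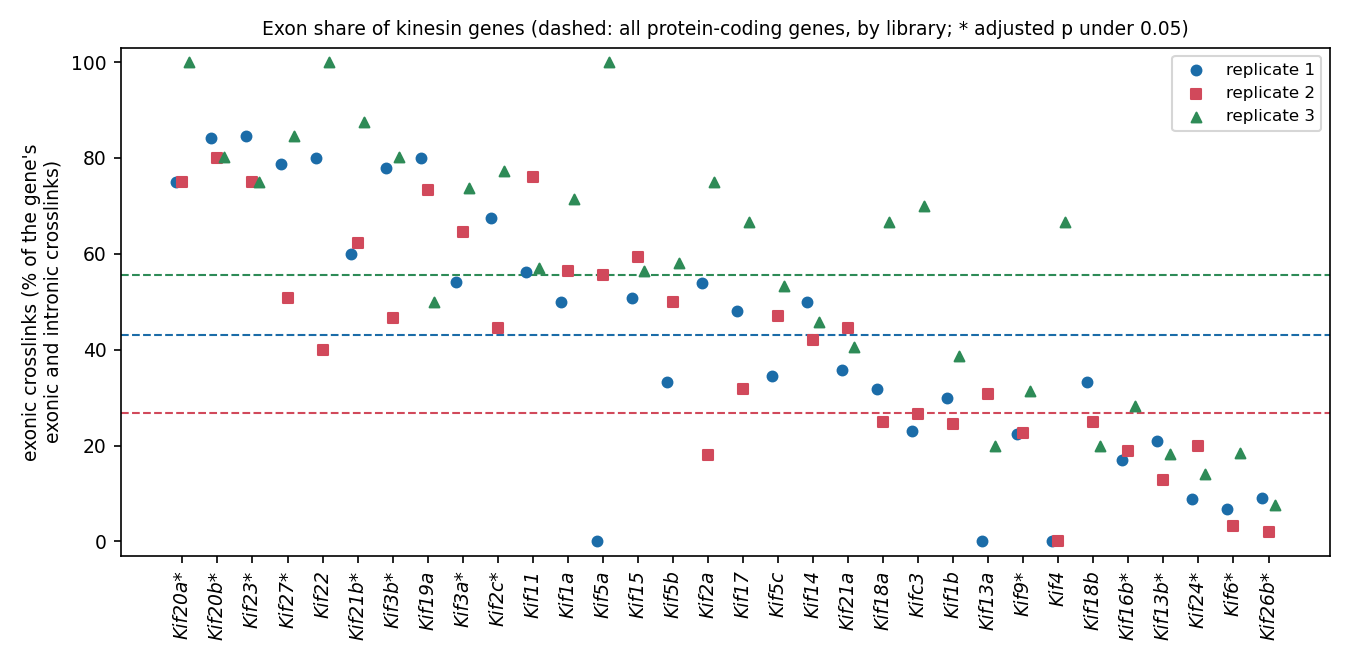
Exonic share of the crosslinks (%) of the 32 tested kinesin genes, one point per library, ordered by the fitted log2 difference, with dashed lines for all protein-coding genes of each library. Starred genes on the left side lie above the line of the same library and starred genes on the right side below it, in all 3 libraries.

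Of the 13 families listed, kinesin-6 had 3 of 3 tested genes above the pooled share, kinesin-2 had 2 of 3 and kinesin-4 had 2 of 4. Kinesin-9 had 2 of 2 tested genes below it, and kinesin-3 had 2 of 6. In kinesin-1, the classical cargo motors Kif5a, Kif5b and Kif5c, 0 of 3 passed edgeR's test in either direction and 0 had an unadjusted p under 0.05, nor did binomial tests call any. Of 14 genes for kinesin partners and related spindle proteins, 13 were tested, and 2 were above and 1 below the pooled share. Those above were Cenpe, a kinetochore kinesin without a Kif name, with 67, 79 and 181 exonic against 9, 8 and 7 intronic crosslinks, and Prc1, a bundler of the central spindle, with 14, 11 and 46 against 4, 6 and 6. The cargo adaptor gene Trak1 was below, with 1, 8 and 3 against 18, 23 and 11. The Kif3a and Kif3b partner gene Kifap3 had 43, 6 and 95 exonic and 50, 93 and 53 intronic crosslinks and was not called.

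Introns were then looked at one by one. The intron with the most crosslinks was intron 2 of Kif26b, an atypical kinesin, with 7, 141 and 12 crosslinks in replicates 1, 2 and 3. Of these 160 crosslinks, 124 lay in a stretch of 101 nt, with 4, 113 and 7 in the single libraries. The stretch overlaps an annotated small nuclear RNA gene on the same strand, Gm24405 (chr1:178464470-178464636), whose 167 nt held 2, 100 and 5 crosslinks. Of the 15-mers of Gm24405, 31.4% are also in the U1 snRNA gene Rnu1b6 and 28.8% in Rnu1a1, and the origin of these reads among such copies was not tested. The sequence is shown because most crosslinks assigned to Kif26b lay in it and it holds a single GAA.
Kif26b intron 2 stretch (chr1:178464461-178464561, plus strand): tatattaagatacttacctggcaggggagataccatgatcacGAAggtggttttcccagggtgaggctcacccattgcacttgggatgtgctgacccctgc

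Without the stretch, Kif26b had 1, 3 and 1 exonic and 6, 34 and 5 intronic crosslinks. Leaving out every intronic crosslink in an exon of another gene on the same strand, an alternative chosen after seeing the data, changed its log2 difference from -3.78 (adjusted p = 3.00e-07 by edgeR) to -2.66 (adjusted p = 0.00227). The calls of the other 13 kinesins were kept, and 1 more gene was called above the pooled share.

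Intron 1 of Kif24 (chr4:41428983-41464709, minus strand) and of Kif9 (chr9:110306152-110312128, plus strand) followed. Intron 1 of Kif24 had 37, 73 and 39 crosslinks, and these were spread out, as the fullest 101 nt held 6 of 149. Intron 1 of Kif9 is 5977 nt long and had 29, 58 and 49 crosslinks, or 22.8 per kb over the 3 libraries together against 3.87 per kb in its remaining introns. Its fullest 101 nt held 0, 19 and 2 crosslinks, so that stretch was a feature of replicate 2, where the crosslinks lay at 16 different nucleotides. The stretch is shown because it ends in a run of GAA repeats, with 14 GAA in 101 nt.
Kif9 intron 1 stretch (chr9:110311032-110311132, plus strand): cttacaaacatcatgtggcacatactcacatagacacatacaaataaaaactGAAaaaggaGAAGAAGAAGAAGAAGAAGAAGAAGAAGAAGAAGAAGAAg

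First introns held 30.5% of the intronic crosslinks of kinesins outside chromosome 18 and 15.1% of the intronic length. Those of Kif24 and Kif9 held 149 and 136 of these crosslinks. The shares are given without those of other genes, so they do not show a trait of kinesins. Few intronic crosslinks lay in exons of other transcripts of the same kinesin. The most were in intron 22 of Kif1b, a mitochondrial and vesicle motor, where a long alternative exon of 4761 nt held 2, 14 and 2. Intron 2 of Kif2c had 5, 2 and 5 in an alternative exon of 385 nt.

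Single exons were compared with the other exons of the same transcript, per nt. Of 15527 internal exons tested in all genes, 13.1% were called higher and 0.902% lower (edgeR, adjusted p under 0.05). Of the 879 internal exons of kinesins, 116 exons of 17 genes had enough crosslinks. Among these, 23 exons of 12 genes were called higher, 19.8%. By edgeR 0 kinesin exons were called lower, with 3 at an unadjusted p under 0.05, and binomial tests called 0. Folds are given as the mean log2 ratio of observed to length-expected crosslinks, with 0.5 added to each. The median fold was 0.56 over the tested kinesin exons and 0.17 over the tested exons of other genes. An exon entered with at least 3 expected or 5 observed crosslinks, so one with under 3 expected entered only with more crosslinks than expected. The shares called higher and lower and the median folds partly reflect this rule, which applied to all genes. Without the filter on low counts 8 of the 23 exons stayed called. The other exons of a transcript, used as the reference, include untranslated ones with few crosslinks. With only the other coding bases as the reference 4 of the 23 exons stayed called. With exact binomial tests in each library 2 stayed, and without replicates 1, 2 and 3 in turn 4, 14 and 3 exons were called, of which 4, 12 and 3 were among the 23. Kif2c exon 7 and Kif27 exon 13 were the only ones called in each of these 3 fits.

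Kif2c exon 7 had the highest mean fold on this scale, on which low counts are drawn towards 0. By the fitted log2 ratio, 2.80, it came after Kif21b exons 12 and 13, Kif5c exon 11 and Kif15 exon 31, with 3.31, 3.07, 2.88 and 2.83, which rest on 7, 8, 6 and 13 crosslinks. The exon is 101 nt long and had 6, 5 and 9 crosslinks in replicates 1, 2 and 3, where its length predicted 0.923, 0.590 and 2.14 (log2 fold 2.12 ± 0.25, SD, n = 3; adjusted p = 3.61e-05 by edgeR). It was above its expectation in 3 of 3 libraries. Its sequence, shown above, holds 9 GAA, and 73.3% of its bases are purines. It was called under all 9 alternatives run for it.

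Kif27 exon 13 had 17, 10 and 24 crosslinks against an expected 3.72, 1.46 and 7.90 (log2 fold 2.01 ± 0.44, SD, n = 3; adjusted p = 1.24e-06 by edgeR). This exon lies outside the motor region and holds 14 GAA in 177 nt. It too was called under all alternatives run for it, which do not include the one without overlapping genes, because the annotation of the microRNA gene Mir6369 touches exon 12 of Kif27.

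The neighbours of exon 13 were crosslinked in most libraries too. Exon 14 had 16, 5 and 33 crosslinks against 4.54, 1.78 and 9.64 expected (log2 fold 1.57 ± 0.26, SD, n = 3; adjusted p = 0.000112 by edgeR). Exons 11 and 12 had 16, 1 and 25 and 6, 0 and 20 crosslinks, so both were high in replicates 1 and 3 and below expectation in replicate 2. Exon 16 had 12, 3 and 17, with an adjusted p = 0.0450 by edgeR. Against coding bases alone exons 11, 12, 14 and 16 lost the call, with adjusted p = 0.394, 0.470, 0.126 and 0.727 by edgeR. Exon 15 lies between called exons and holds 15 GAA in 207 nt, but it had 5, 2 and 15 crosslinks where 4.35, 1.71 and 9.23 were expected (adjusted p = 0.529 by edgeR). GAA density and crosslink density were therefore not matched exon by exon. Over the 15 fully coding internal exons of Kif27, which share their libraries, Spearman's rho between the densities was 0.56, 0.04 and 0.55 in replicates 1, 2 and 3.

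**Figure D3:**
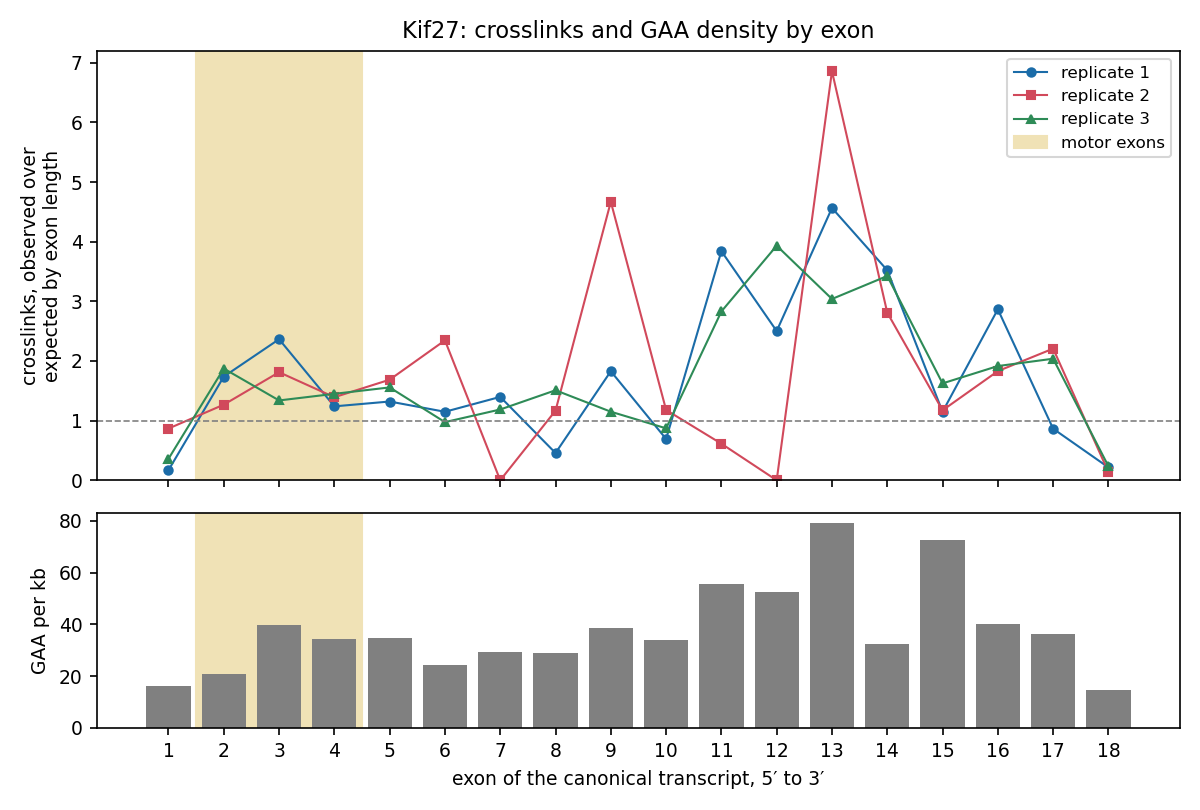
Observed over length-expected crosslinks of each Kif27 exon in the 3 libraries (top) and GAA per kb of the same exons (bottom), with the motor exons shaded. Exons 2 to 5, 9 and 13 to 16 are above 1 in every library. Exons 11 and 12 are above 1 in replicates 1 and 3 only, and exon 15, with 72.5 GAA per kb, lies between 1.15 and 1.62.

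Among the kinesin exons with an expected total of at least 10 crosslinks, the lowest folds were also small. Kif27 exon 7 had 5, 0 and 9 crosslinks (log2 fold -0.42 ± 1.31), Kif24 exon 11, of 2226 nt, had 3, 8 and 1 (-0.16 ± 1.05), and Kif27 exon 10 had 3, 2 and 8 (-0.16 ± 0.33). None of these was called. Kif27 exons 15 and 6 followed with folds of 0.34 ± 0.28 and 0.39 ± 0.56 (SD, n = 3 throughout).

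Called exons of Kif15, Kif11 and Kif21b rested on fewer crosslinks. Kif15 exon 31, of 73 nt, had 0, 7 and 6 crosslinks against 0.451, 0.571 and 0.917 expected (adjusted p = 0.000511 by edgeR), so the call came from replicates 2 and 3. It lost the call without replicate 2 or 3. Kif11 exon 16 had 1, 6 and 1 crosslinks, 6 of 8 of them in replicate 2, and lost the call without replicates 1, 2 or 3 in turn. Kif21b exon 12 had 1, 6 and 0 crosslinks and the adjacent exon 13 had 2, 4 and 2, with adjusted p = 0.00388 and 0.00368 by edgeR. Exon 12 lost the call without replicate 1 (adjusted p = 0.0653 by edgeR) and without replicate 2, where its fitted log2 ratio went from 3.31 to 1.42 (adjusted p = 0.688 by edgeR). Exon 13 lost it without any 1 replicate, with adjusted p = 0.101, 0.0575 and 0.0890 by edgeR.

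Kif9 exon 17 was even between libraries, with 4, 6 and 9 crosslinks against 0.948, 1.58 and 1.99 expected (log2 fold 1.74 ± 0.17, SD, n = 3; adjusted p = 0.00102 by edgeR). Kif9 exon 11 had 2, 3 and 2. Both lost the call against coding bases alone, where the adjusted p was 0.161 and 0.333. In Kif2a, exons 3, 6, 7 and 17 were called, with 2, 1 and 13, 2, 2 and 5, 3, 0 and 7, and 6, 0 and 7 crosslinks in replicates 1, 2 and 3. Exon 3 had a log2 fold of 1.58 ± 0.76 (SD, n = 3; adjusted p = 0.00122 by edgeR), with 2 GAA in 117 nt, and 13 of its 16 crosslinks came from replicate 3.

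The remaining called exons were in cargo and centriole motors. Kif3b exons 5 and 6 had 4, 3 and 6 and 8, 0 and 9 crosslinks, and Kif3a exons 8 and 9 had 2, 4 and 4 and 1, 4 and 3. Kif17 exon 5, of 453 nt, had 5, 3 and 8 against 1.61, 1.61 and 1.98 expected (adjusted p = 0.0142 by edgeR). Kif5c exon 11, with 14 GAA in 149 nt, had 1, 3 and 2 crosslinks, and Kif24 exon 3 had 1, 4 and 1. These last 2 rest on 6 crosslinks each.

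The called exons were rich in GAA. Of the 23 called kinesin exons 18 held at least 40 GAA per kb, 78.3%, and of the 93 tested but not called 32 did, 34.4%. In other genes the same shares were 61.5% and 26.5%. The median density was 54.3 GAA per kb in the called and 34.1 in the other tested kinesin exons, and 46.8 and 28.2 in other genes. Purines made up a median of 61.1% of the called and 57.1% of the other tested kinesin exons. The 5 called exons below 40 GAA per kb were Kif2a exons 7, 3 and 17 with 10.4, 17.1 and 19.9, Kif17 exon 5 with 17.7 and Kif27 exon 14 with 32.4.

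Over all 862 fully coding internal exons of kinesins, GAA stood at 27.9 per kb, against 24.1 per kb in the 157248 such exons of other genes. In the motor exons of kinesins it was 24.5 per kb and in the other coding exons 31.6 per kb. It was denser outside the motor exons in 28 of the 37 kinesins with exons of both kinds. The pentamer GAAGA was found in 33.3% of motor exons, 45.0% of other kinesin coding exons and 35.1% of coding exons of other genes, and AGAAG, which can overlap it, in 30.8%, 47.0% and 34.2%. All motifs were searched on the sense strand only, since the protein binds RNA, and GAA is part of both pentamers.

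Crosslinks were then set against what exon length predicts within the coding sequence of the same gene. In kinesin exons with 40 or more GAA per kb, observed crosslinks were 1.43 ± 0.160 (SD, n = 3) times the expected number, with 1.43, 1.59 and 1.27 in replicates 1, 2 and 3. In exons with 20 to 40 the ratio was 0.844 ± 0.0449 and in exons with under 20 it was 0.868 ± 0.100. The top group was above 1 and the other groups below 1 in all 3 libraries. Other genes had ratios of 1.37 ± 0.209, 0.960 ± 0.0118 and 0.826 ± 0.0938 in the same order, so the top and bottom groups of kinesins differed from those of other genes by less than the spread between libraries. The middle group was lower in kinesins than in other genes in 3 of 3 libraries, a difference that was not tested. Without Kif27 the top kinesin group stood at 1.40 ± 0.212.

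**Figure D4:**
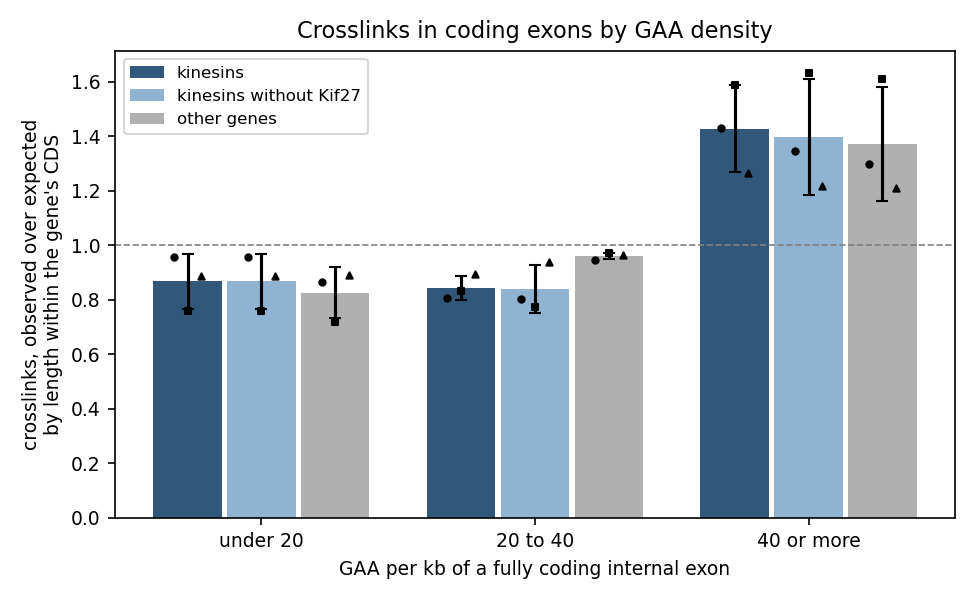
Observed crosslinks over those expected by length within the coding sequence of the same gene, for fully coding internal exons grouped by GAA per kb; bars are means and error bars the SD of 3 libraries, and points are single libraries. Exons with 40 or more GAA per kb are above 1 in kinesins, in kinesins without Kif27 and in other genes, in each library.

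The motor domain was located by its P-loop and switch II patterns in the translated coding sequence of 41 of 44 kinesins, and it was not found in Kif19a, Kif26a and Kif26b. The 41 motor regions made up 32.2% of the coding length of these genes. They held 144 coding crosslinks in replicate 1 against 349 in the rest (29.2%, 95% Clopper-Pearson interval 25.2 to 33.4), 92 against 331 in replicate 2 (21.7%, 17.9 to 26.0) and 345 against 732 in replicate 3 (32.0%, 29.3 to 34.9). The motor share was thus below its length share by more than counting error in replicate 2 only. Without Kif27 the share was 32.6% (27.6 to 38.0), 21.5% (17.4 to 26.1) and 37.6% (34.1 to 41.2) against 32.4% of the length, so it was below in replicate 2 and above in replicate 3 by more than counting error. Compared with the expectation from length within each gene, the log2 ratio of motor crosslinks was -0.22, -0.55 and -0.15, a mean of -0.30 ± 0.21 (SD, n = 3), and below 0 in 3 of 3 libraries. Without Kif27 this within-gene ratio was -0.31 ± 0.27.

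For scale, the first 1000 coding nt were compared with the rest of the coding sequence in all genes with a long enough coding sequence. In kinesin-13, kinesin-14 and Kif14 this stretch lies largely outside the motor, so it is not a like-for-like measure of the motor. That log2 ratio was -0.21, -0.43 and -0.05 in kinesins and 0.02, 0.04 and 0.01 in other genes in replicates 1, 2 and 3. The kinesin value was below that of other genes in 3 of 3 libraries, and the difference was not tested.

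Gene by gene, 26 motor regions could be tested and 17 had a fitted log2 ratio below 0. Across the genes of the first 1000 nt comparison, 1.47% of 2240 were called higher and 2.23% lower by edgeR. Of the 26 motor regions 0 were called higher, with 0 at an unadjusted p under 0.05 and 0 by binomial tests, and 1 was called lower, that of Kif15, a gene whose exon 31 is shown above, with 3, 3 and 6 crosslinks in the motor and 25, 34 and 50 in the rest of the coding sequence (fitted log2 ratio -1.62, adjusted p = 0.0445 by edgeR). The motor had 2.84, 2.84 and 5.68 crosslinks per kb against 8.05, 10.95 and 16.1 in the rest, so it was lower in 3 of 3 libraries. The call was lost without any 1 replicate, where the adjusted p ran from 0.387 to 0.578.

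Kif27 had 35, 14 and 67 motor crosslinks against 124, 46 and 270, a log2 ratio of -0.30 that did not pass (adjusted p = 0.601 by edgeR). The highest fitted ratio was that of Kif21b, 0.90, with 6, 9 and 9 crosslinks in the motor and 11, 23 and 9 elsewhere (adjusted p = 0.286 by edgeR). Kif23 and Kif17 had 0.81 and 0.88, and neither passed. Exons of the motor class made up 37 of the 116 exons tested singly, and 3 of them were called, Kif3a exon 8, Kif24 exon 3 and Kif17 exon 5. Of the 79 other tested exons 20 were called, and 15 of 66 without Kif27. The median log2 fold was 0.25 in motor and 0.66 in other exons, a difference that was not tested.

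**Figure D5:**
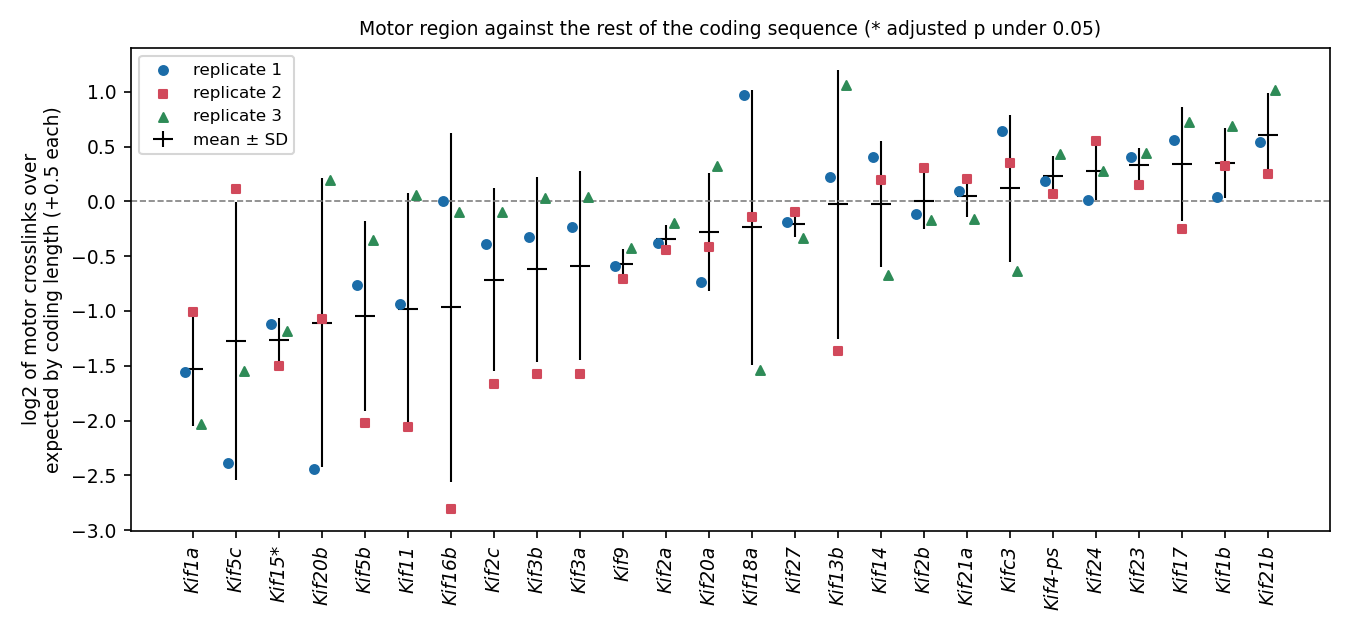
Log2 ratio of observed to length-expected crosslinks in the motor region of the 26 tested kinesins (0.5 added to each), with single libraries as points and the mean ± SD in black. Kif15, starred, lies between -1.50 and -1.12, and the points of many other genes lie on both sides of 0.

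Over whole transcripts, kinesins had more crosslinks per kb in coding sequence than in 3' UTRs, 3.31 against 0.779 in replicate 1, 2.92 against 0.487 in replicate 2 and 7.22 against 1.52 in replicate 3. In other genes the densities were 2.04 against 0.548, 1.86 against 0.337 and 4.13 against 0.982. Kinesins were denser than other genes in both parts in each library.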

How the data were processed

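The authors processed each iCLIP library with the iMAPS pipeline and deposited whole-number counts of unique cDNAs for each crosslinked nucleotide and strand, not normalised and not pooled. The submitters' processing notes named Trim Galore 0.6.7, Bowtie 1.3.1, STAR 2.7.9a and UMI-tools 1.1.2, with no role or order, and mm39, which all sequence names and lengths fitted. The treatment of reads with several matches was not given in the sources used here. Random barcodes had been collapsed, so intervals cover counting error only.

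Crosslinks were counted by strand in exons and introns of the canonical transcript of each protein-coding gene (GENCODE M39). Tests used edgeR 4.0.16 in R 4.3.3 (quasi-likelihood, library as a term, two-sided) on both parts of a feature in the 3 libraries, with Benjamini-Hochberg adjustment over all features and a threshold of 0.05. Genes needed 10 crosslinks for the exon share. Exons needed 20 exonic crosslinks in the gene and 3 expected or 5 observed in the exon. Coding sequences of at least 2000 nt with 10 coding crosslinks entered the motor table. Motors ran from 90 residues before the P-loop to 100 after switch II. The fits were tested on simulated data. Depth was 348033 to 619571 crosslinks. The members, lists and tests were chosen with earlier results of these data known. Named were the 10 genes with the most exonic and with the most crosslinks in all, the 5 highest and 5 lowest exons, all calls and the 3 fullest introns. Alternatives changed libraries, test, filter, counting unit, reference, transcripts, scaling, pseudocount, overlapping genes and motor borders. Python 3.11.15 and SciPy 1.17.1 were used.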

Additional observations from a re-analysis of the deposited data

How the results depend on the processing

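With 1 group, there were no groups to pair by replicate number. Each test compared both parts of a feature within the same library. The number of kinesins above the pooled exon share was 8, and it was 3 with exact binomial tests in each library, 27 per nt, and 3 to 9 when 1 replicate was left out. The number below was 6, and it was 1 with binomial tests, 0 per nt, and 2 to 6 when 1 replicate was left out. Per nt the log2 differences of the 6 genes below turned positive, 2.85 for Kif6, 2.40 for Kif13b, 3.48 for Kif16b, 1.69 for Kif9, 0.74 for Kif24 and 0.095 for Kif26b, because the alternative measures density and introns are long. The number of exons called higher was 23, and it was 2 with binomial tests, 8 without a filter on low counts, 5 against other internal exons, 4 against other coding bases, and 3 to 14 when 1 replicate was left out. The number of motor regions called lower was 1, and it was 0 with binomial tests, 0 without a filter, and 0 to 0 when 1 replicate was left out. The share of kinesins was 0.306% of the library total in place of 0.494% of crosslinks in protein-coding genes, since the denominator is larger. The median log2 fold of tested kinesin exons was 0.56, and it was 1.15 with 0.5 added to exon and reference before division by length. The motor log2 ratio stayed between -0.38 and -0.18 under the 8 alternatives run for it. Except where a value above shows it, the cause of a change was not tested. Depth limits the results on single exons, as called exons had 6 to 54 crosslinks over 3 libraries.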
